A study of Homo sapiens with 4 samples.

Results

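Iron uptake, storage and regulation were followed through 9 genes chosen by name: TFRC, STEAP3, SLC11A2, FTH1, FTL, NCOA4, SLC40A1, ACO1 and IREB2. Of these, 8 were measured in UMUC3, in a table of 30148 genes, and 9 in SW780, in a table of 17752 genes. SLC40A1 was not analysed in UMUC3. All members measured had at least 1 CPM, the reads of a gene scaled to a fixed library total, in a library of their line. UMUC3 and SW780 are human bladder cancer cell lines. In each line a lentivirus carried either a short hairpin against SCD1 (shSCD1), the stearoyl-CoA desaturase encoded by SCD, or a non-targeting hairpin (shNT, whose genotype is labelled WT), and RNA sequencing gave 1 library for each of the 4 groups. UMUC3 cells grew in MEM and SW780 cells in DMEM, and both media held 10% fetal bovine serum with penicillin and streptomycin. How many hairpins were used, and whether a population or 1 clone was sequenced, was not stated.

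Cells take up transferrin-bound iron through the transferrin receptor TFRC. The reductase STEAP3 reduces it in the endosome and the transporter SLC11A2 (DMT1) moves it into the cytosol. Iron not used is stored in ferritin, a shell of heavy chains (FTH1, which oxidise iron) and light chains (FTL, which help form the core), until the cargo receptor NCOA4 delivers ferritin to lysosomes, while ferroportin, SLC40A1, exports iron. The iron regulatory proteins IRP1 (ACO1, which is an aconitase when it holds an iron-sulphur cluster) and IRP2 (IREB2) bind hairpins called iron-responsive elements when iron is low. Bound in a 5′ UTR they block translation of ferritin and ferroportin, and in a 3′ UTR they stabilise the TFRC mRNA. Levels of ferritin mRNA and protein can therefore part, and only mRNA was measured here.

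The elements are shown because their place in an mRNA bears on how iron acts on it. A search of UTRs in GENCODE 29 (GRCh38), on the transcribed strand only, used the loop CAGTGN, a 5-pair upper stem and an unpaired C before that stem. It found 7 elements in 4 of the 9 members. They lie at chr11:61967574-61967601 (minus strand) in the FTH1 5′ UTR, at chr19:48965336-48965363 (plus strand) in the FTL 5′ UTR and at chr2:189580661-189580688 (minus strand) in the SLC40A1 5′ UTR. The TFRC 3′ UTR (minus strand) held 4, at chr3:196050463-196050490, chr3:196050510-196050537, chr3:196050575-196050602 and chr3:196050979-196051006, lettered a to d in that order. Each is written 5′ to 3′ as DNA, with the loop in capitals.
FTH1: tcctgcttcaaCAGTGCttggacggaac
FTL: tcttgcttcaaCAGTGTttggacggaac
SLC40A1: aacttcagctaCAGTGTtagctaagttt
TFRC a: attatcgggaaCAGTGTttcccataatt
TFRC b: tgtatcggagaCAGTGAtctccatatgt
TFRC c: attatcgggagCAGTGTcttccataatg
TFRC d: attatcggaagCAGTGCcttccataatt
The FTH1 and FTL elements shared 26 of 28 bases, the 4 TFRC elements 17 to 25 of 28 between pairs, and FTH1 and SLC40A1 13 of 28. The pattern stood in the 5′ UTR of 31 of 19014 genes (0.163%) and in the 3′ UTR of 128 of 19128 genes (0.669%), whatever the length of the UTR. The 4 in TFRC were the highest number of matches in any gene's 3′ UTR. No match was found in SLC11A2, IREB2, ACO1, NCOA4 or STEAP3, which says only that these letters are not in the UTRs searched. EPAS1 and CDC42BPA, taken here as mRNAs with an iron-responsive element, had no match either, so the pattern misses some elements.

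Library totals were 32540576 reads in UMUC3 shSCD1, 22818368 in UMUC3 shNT, 25549737 in SW780 shSCD1 and 34087871 in SW780 shNT. These are reads recovered from the scaled values and summed over the genes of that line's table. They need not equal sequencing depth, and the tables of the lines hold different numbers of genes. The value columns are headed only as first and second. The second was read as shSCD1 because the tables are named for it, and every direction of shSCD1 against shNT would turn round if it were not. The one check was SCD itself, with 59.6 CPM in UMUC3 shSCD1 against 264 CPM in UMUC3 shNT, and 92.1 CPM in SW780 shSCD1 against 592 CPM in SW780 shNT. With 1 library a group no difference within a line has a replicate check or a p-value. Intervals below are 95% exact (Clopper-Pearson) and cover counting error only. "Higher" and "lower" describe these libraries, where fewer cells of a kind and less RNA per cell cannot be told apart. Luminal urothelial markers summed to 14.4 CPM in UMUC3 shSCD1 and 11.4 CPM in UMUC3 shNT, with 3 of 11 markers at 1 CPM or more. In SW780 the same list summed to 947 CPM in shSCD1 and 1298 CPM in shNT, with 9 of 11 markers at 1 CPM or more. All 9 were lower in shSCD1, 5 of them by 1.5-fold, beside 3.7% of all genes. In UMUC3, 2 of the 3 were higher in shSCD1 and 1 lower, with 1 higher by 1.5-fold, beside 10.1% of all genes. Epithelial markers summed to 249 CPM in UMUC3 shSCD1, 524 CPM in UMUC3 shNT, 9570 CPM in SW780 shSCD1 and 11526 CPM in SW780 shNT. All 3 epithelial markers with at least 1 CPM in UMUC3 were lower in shSCD1 by 1.5-fold, beside 6.86% of all genes. In SW780, 2 of 6 were higher in shSCD1 and 4 lower, and 0 passed 1.5-fold, beside 8.75% of all genes. Fibroblast and endothelial markers summed to 1.66 CPM in UMUC3 shSCD1, 3.55 CPM in UMUC3 shNT, 285 CPM in SW780 shSCD1 and 198 CPM in SW780 shNT. In SW780, 2 of the 6 such markers with at least 1 CPM were higher in shSCD1 by 1.5-fold, beside 5.05% of all genes. They were COL1A1 (6.69 CPM in shSCD1 against 2.90 CPM in shNT) and ACTA2 (29.4 CPM in shSCD1 against 14.9 CPM in shNT). Most of the SW780 sum was COL3A1, with 203 CPM in shSCD1 and 139 CPM in shNT. Of the 6, 5 had a log2 ratio of shSCD1 over shNT above 0 and 1 below, at -0.58. COL1A2 and DCN were at 0 reads in both. Macrophage markers summed to 48.1 CPM in UMUC3 shSCD1, 67.1 CPM in UMUC3 shNT, 13.0 CPM in SW780 shSCD1 and 18.2 CPM in SW780 shNT, with 1 marker, CD68, at 1 CPM or more. Erythroid markers summed to at most 0.351 CPM in any library. The part of these markers in the iron gene values was not tested.

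Ferritin and TFRC mRNAs led the group in all 4 libraries on a per-length scale. The length is that of all exons annotated for a gene, merged, which can exceed its mRNA, so the order depends on the annotation. In UMUC3 shSCD1, FTL stood at 949 CPM per kb of exonic length, FTH1 at 318, TFRC at 76.9 and NCOA4 at 45.8. STEAP3 (12.9), ACO1 (12.6), SLC11A2 (11.2) and IREB2 (6.91 CPM per kb) followed, and the counting intervals of STEAP3 and ACO1 overlapped. In UMUC3 shNT, FTL (892 CPM per kb) again stood above FTH1 (446), TFRC (75.9) and NCOA4 (61.6), with IREB2 lowest at 5.38. In SW780 the 2 ferritin chains were in the other order. SW780 shSCD1 had 1839 CPM per kb of FTH1 and 739 of FTL, and SW780 shNT had 2343 CPM per kb of FTH1 and 878 of FTL. The exporter SLC40A1 was lowest in SW780, at 5.38 CPM per kb in shSCD1 and 5.57 CPM per kb in shNT, where ACO1 stood at 5.45 and 6.74 CPM per kb in those libraries. In SW780 shSCD1 the intervals of SLC40A1 and ACO1 overlapped, as did those of SLC11A2 (12.6 CPM per kb) and IREB2 (12.2 CPM per kb).

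**Figure D1:**
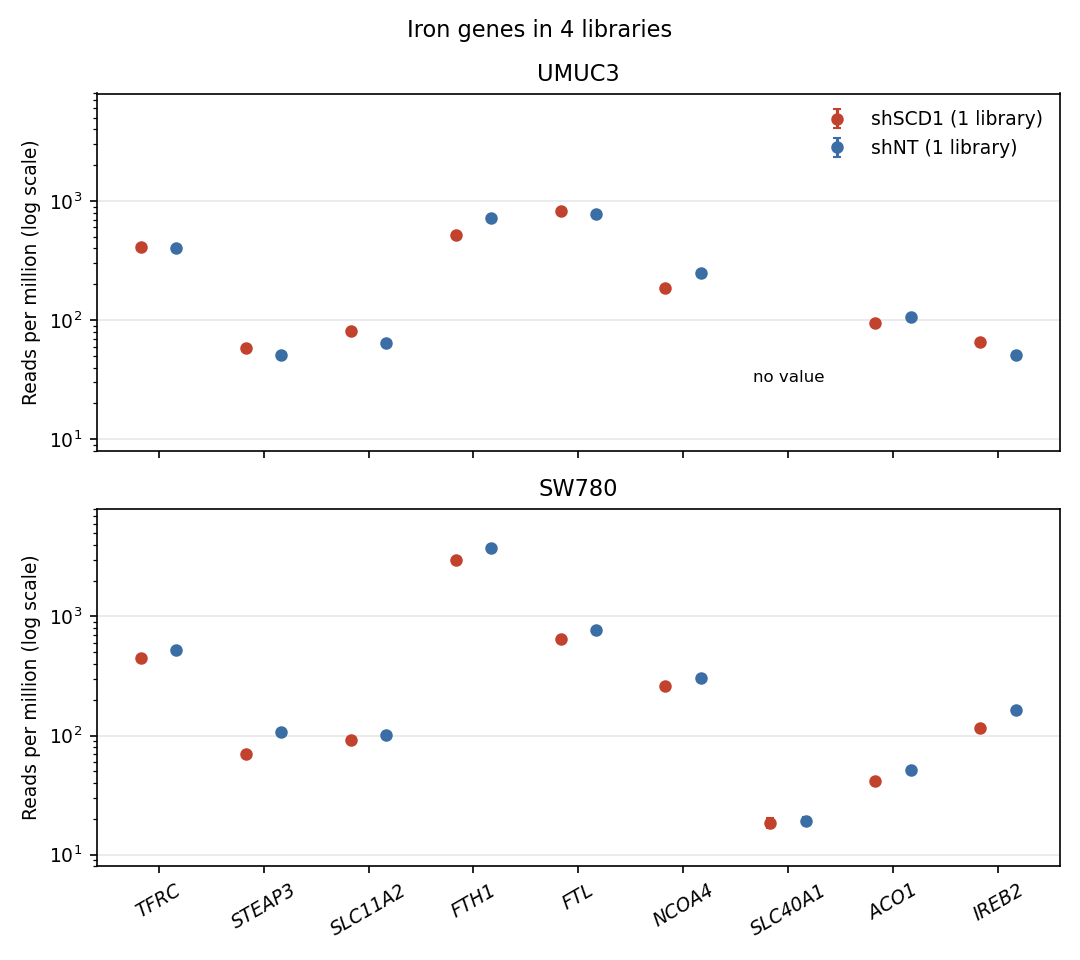
Level of each of the 9 iron genes, in CPM on a log axis, in shSCD1 (red) and shNT (blue) libraries of UMUC3 (top) and SW780 (bottom). Bars are 95% counting intervals of 1 library and are mostly smaller than the points. FTH1 lies at 514 and 721 CPM in UMUC3 but 2973 and 3789 CPM in SW780, while SLC40A1 has no value in UMUC3.

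The lines differed most in FTH1 among the 8 members measured in both. In shNT libraries, set on the 15415 genes that both tables hold, FTH1 had 744 CPM in UMUC3 and 3858 CPM in SW780, 5.19-fold lower in UMUC3 (5.10 to 5.27). IREB2 had 52.7 CPM in UMUC3 shNT and 167 CPM in SW780 shNT, 3.18-fold lower in UMUC3 (2.98 to 3.39). STEAP3 was 2.09-fold lower in UMUC3, with 52.4 CPM against 109 CPM in SW780. The other IRP went the opposite way, since ACO1 had 109 CPM in UMUC3 shNT and 51.9 CPM in SW780 shNT, 2.10-fold higher in UMUC3 (1.97 to 2.23). FTL was near equal, with 808 CPM in UMUC3 and 785 CPM in SW780. The remaining members were lower in UMUC3 shNT by 1.57-fold (SLC11A2), 1.27-fold (TFRC) and 1.19-fold (NCOA4). In shSCD1 libraries the FTH1 difference was 5.69-fold, with 531 CPM in UMUC3 and 3021 CPM in SW780. ACO1 was 2.35-fold higher there, at 98.3 CPM in UMUC3 and 41.8 CPM in SW780, and IREB2 1.74-fold lower, at 67.7 CPM in UMUC3 and 118 CPM in SW780. The tables were made separately, and line and medium cannot be told apart. Standard DMEM contains ferric nitrate and standard MEM does not.

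With SCD1 knocked down, no member differed by 2-fold in either line. The count was 0 of 8 in UMUC3, where 4.64% of 14063 genes with at least 1 CPM did so, and 0 of 9 in SW780, where 2.54% of 12880 genes did. Past 1.5-fold there were 0 of 8 in UMUC3 (17.0% of all genes) and 1 of 9 in SW780, STEAP3 (8.75% of all genes). These sizes are log2 ratios of shSCD1 over shNT after adding 1 CPM to each. In SW780 all 9 members had a ratio below 0, as did 51.5% of all genes, and the members' median was -0.25 beside -0.01 for all genes. In UMUC3, 3 of 8 members were below 0 (45.7% of all genes) and 5 above (54.3%), with a median of 0.05 beside 0.04 for all genes. Of those 5, TFRC at 0.02 turned below 0 when ratios were centred on the median of all genes, which gave 4 above and 4 below. Among genes with at least 50 CPM, the middle 90% of ratios ran from -0.55 to 0.57 in UMUC3, which holds all 8 members, and from -0.41 to 0.43 in SW780. In SW780, 7 of 9 members lay in that range, and IREB2 at -0.50 and STEAP3 at -0.60 lay below it. In the authors' deposited table, the GFOLD value, a log2 fold change drawn towards 0 where reads are few, was below 0 for 4 of 8 members in UMUC3 (34.9% of all genes) and above 0 for 3 (25.8%). In SW780 the deposited GFOLD value was below 0 for 8 of 9 members (26.0%). In the authors' deposited table the values furthest from 0 were -0.53 for FTH1 in UMUC3 and -0.50 for STEAP3 in SW780, and FTL in UMUC3 and SLC40A1 in SW780 were given as 0.

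**Figure D2:**
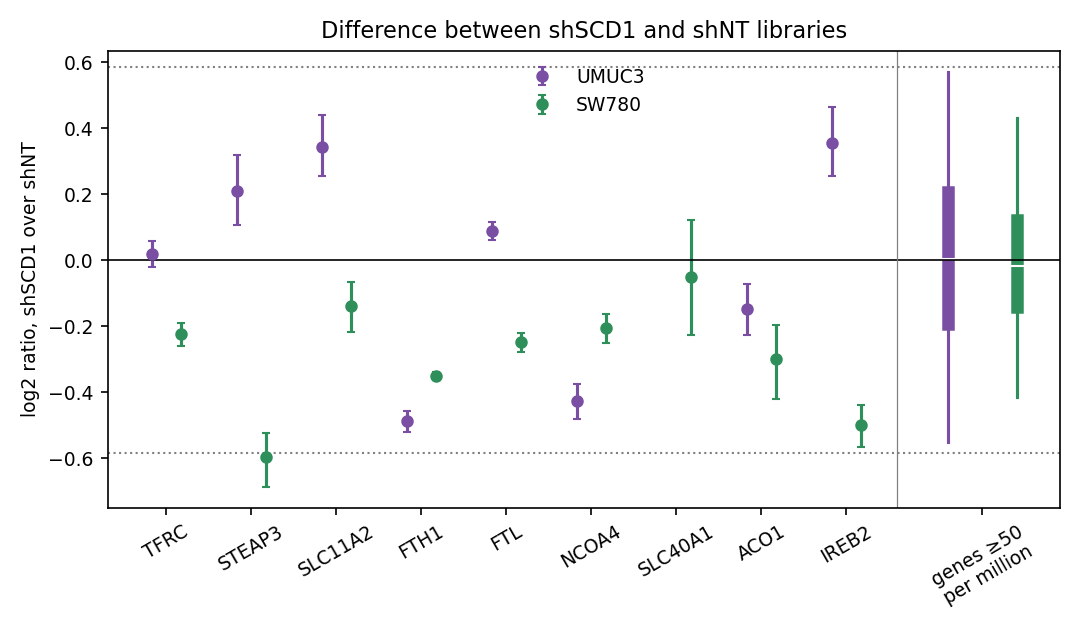
Log2 ratio of shSCD1 over shNT for each iron gene in UMUC3 (purple) and SW780 (green), with 95% counting intervals. At the right, boxes span the quartiles and lines the 5th to 95th percentile of all genes with at least 50 CPM, and dotted lines mark 1.5-fold. All 9 SW780 points lie below 0, while in UMUC3 5 lie above and 3 below, with TFRC at 0.02 turning below 0 when ratios are centred on the median of all genes.

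Of the 3 iron uptake genes, STEAP3 and SLC11A2 were higher in shSCD1 in UMUC3 and lower in SW780, a difference between lines that was not tested. TFRC (chr3:196027183-196082189, minus strand) had 409 CPM in UMUC3 shSCD1 and 404 CPM in UMUC3 shNT, a ratio of 1.01 (0.987 to 1.04). In SW780 it had 446 CPM in shSCD1 and 521 CPM in shNT, 1.17-fold lower (1.14 to 1.20). This mRNA, with 4 pattern matches in its 3′ UTR, was thus level in UMUC3 within counting error and slightly lower in SW780. STEAP3 (chr2:119223831-119265652, plus strand) had 58.9 CPM in UMUC3 shSCD1 and 50.8 CPM in UMUC3 shNT, 1.16-fold higher (1.08 to 1.25). The authors' deposited GFOLD value for STEAP3 in UMUC3 was close to 0, at 0.008. In SW780, 70.6 CPM of STEAP3 in shSCD1 stood against 107 CPM in shNT, 1.52-fold lower (1.44 to 1.61). STEAP3 had the lowest ratio of the 9 members in SW780, where 3.59% of genes had a lower ratio and 8.52% had one at least as far from 0. It shares 11.0% of its exonic bases with the antisense gene STEAP3-AS1, which had 20 reads in UMUC3 shSCD1 and 12 in UMUC3 shNT. SLC11A2 (chr12:50979401-51028566, minus strand) had 81.3 CPM in UMUC3 shSCD1 and 63.9 CPM in UMUC3 shNT, 1.27-fold higher (1.19 to 1.36). For SW780 its levels were 91.8 CPM in shSCD1 and 101 CPM in shNT, 1.10-fold lower (1.05 to 1.16).

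Of the storage genes, FTH1 and NCOA4 were lower in shSCD1 in both lines, and FTL was not. FTH1 (chr11:61959718-61967660, minus strand) had 514 CPM in UMUC3 shSCD1 and 721 CPM in UMUC3 shNT, 1.40-fold lower (1.37 to 1.43). In SW780 it had 2973 CPM in shSCD1 and 3789 CPM in shNT, 1.27-fold lower (1.26 to 1.29). A lower ratio than that of FTH1 was found for 9.46% of genes in UMUC3 and 9.36% in SW780. In either direction, 23.2% of genes in UMUC3 and 20.6% in SW780 had a ratio at least as far from 0. The gene BEST1 on the opposite strand covers 56.6% of FTH1's exonic bases, and whether counting used strand is not given in the sources used here. BEST1 had 31 reads in UMUC3 shSCD1 against 1589 in UMUC3 shNT, and 22 in SW780 shSCD1 against 1615 in SW780 shNT. With its reads added to FTH1, a choice made after seeing the data, the log2 ratio was -0.62 in UMUC3, past 1.5-fold, against -0.49 without them. In SW780 it was -0.37 against -0.35. FTL (chr19:48965301-48966878, plus strand) had 833 CPM in UMUC3 shSCD1 and 784 CPM in UMUC3 shNT, 1.06-fold higher (1.04 to 1.08). SW780 had 649 CPM of FTL in shSCD1 and 771 CPM in shNT, 1.19-fold lower (1.16 to 1.21). NCOA4 (chr10:46005088-46030714, minus strand) had 187 CPM in UMUC3 shSCD1 and 251 CPM in UMUC3 shNT, 1.35-fold lower (1.30 to 1.40). At 262 CPM in SW780 shSCD1 and 303 CPM in SW780 shNT it was 1.15-fold lower (1.12 to 1.19). Processed copies of the ferritin genes took few reads. In UMUC3 the 16 FTH1 pseudogenes held 141 reads in shSCD1 and 163 in shNT, 0.835% and 0.981% of FTH1 family reads, and the 5 FTL pseudogenes held 50 and 33 reads in those libraries. None was analysed in SW780.

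The exporter and the regulators followed. SLC40A1 (chr2:189560579-189583758, minus strand) had 18.5 CPM in SW780 shSCD1, from 473 reads, and 19.2 CPM in SW780 shNT, from 654 reads, a ratio of 0.965 (0.855 to 1.09) that counting error covers. ACO1 (chr9:32384603-32454769, plus strand) was lower in shSCD1 in both lines. It had 95.2 CPM in UMUC3 shSCD1 and 106 CPM in UMUC3 shNT, 1.11-fold lower (1.05 to 1.17). Its SW780 levels were 41.2 CPM in shSCD1 and 50.9 CPM in shNT, 1.24-fold lower (1.15 to 1.34). IREB2 (chr15:78437431-78501456, plus strand) had opposite ratios. It had 65.6 CPM in UMUC3 shSCD1 and 51.1 CPM in UMUC3 shNT, 1.28-fold higher (1.19 to 1.38). SW780 gave 116 CPM of IREB2 in shSCD1 and 164 CPM in shNT, 1.42-fold lower (1.35 to 1.48). FBXL5, the iron-sensing subunit of the ligase that degrades IRP2, had 30.2 CPM in UMUC3 shSCD1 and 50.4 CPM in UMUC3 shNT, 1.67-fold lower (1.53 to 1.82). In SW780, FBXL5 had 61.9 CPM in shSCD1 and 70.5 CPM in shNT, 1.14-fold lower (1.07 to 1.21).

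Ratios of 2 members within a library do not depend on how libraries are scaled. TFRC to FTH1 reads stood at 0.796 (0.778 to 0.814) in UMUC3 shSCD1 and 0.560 (0.546 to 0.574) in UMUC3 shNT. In SW780 that ratio was 0.150 (0.147 to 0.153) in shSCD1 and 0.138 (0.135 to 0.140) in shNT. It was thus higher in shSCD1 in both lines, by 1.42-fold in UMUC3 and by 1.09-fold in SW780. With BEST1 reads added to FTH1 the UMUC3 shNT value was 0.511. FTL to FTH1 reads stood at 1.62 (1.59 to 1.65) in UMUC3 shSCD1 and 1.09 (1.06 to 1.11) in UMUC3 shNT. For SW780 they stood at 0.218 (0.215 to 0.222) in shSCD1 and 0.204 (0.201 to 0.206) in shNT. FTL reads exceeded FTH1 reads in both UMUC3 libraries and were fewer in both SW780 libraries. The order in UMUC3 shNT turned with BEST1: with BEST1 reads added to FTH1 the ratio there was 0.991. The IRP pair, IREB2 to ACO1, had 0.689 (0.652 to 0.728) in UMUC3 shSCD1 and 0.484 (0.451 to 0.519) in UMUC3 shNT. SW780 had 2.82 (2.63 to 3.03) in shSCD1 and 3.23 (3.06 to 3.41) in shNT, so this ratio was higher in shSCD1 in UMUC3 and lower in SW780. NCOA4 to FTH1 reads stood at 0.363 (0.352 to 0.374) in UMUC3 shSCD1 and 0.348 (0.338 to 0.359) in UMUC3 shNT, intervals that overlap, and with BEST1 reads added to FTH1 the UMUC3 shNT value was 0.318. In SW780 they stood at 0.0882 (0.0861 to 0.0905) in shSCD1 and 0.0799 (0.0783 to 0.0816) in shNT, 1.10-fold higher in shSCD1.

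**Figure D3:**
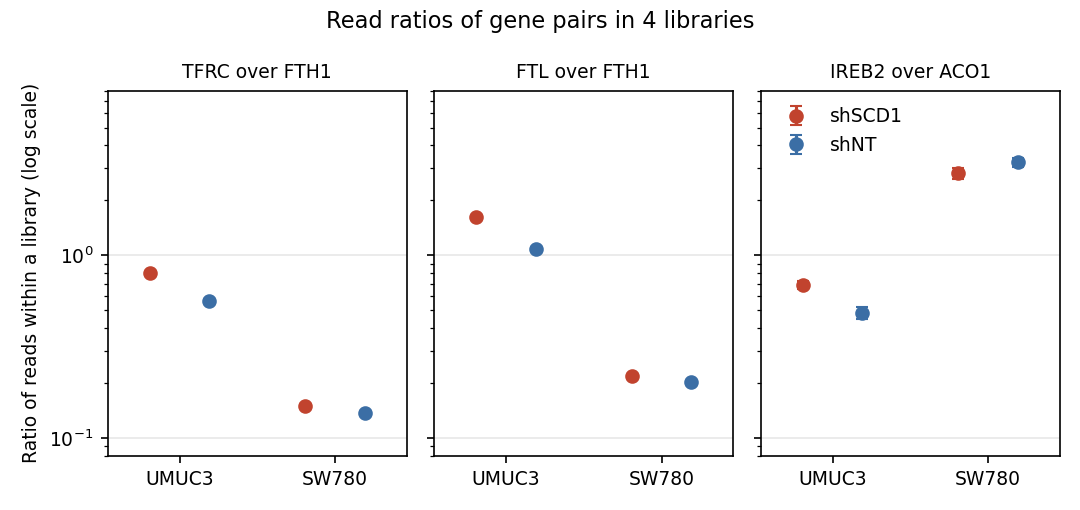
Read ratios of 3 gene pairs within each library, on a log axis, for shSCD1 (red) and shNT (blue) in UMUC3 and SW780, with 95% counting intervals. TFRC over FTH1 is 0.796 and 0.560 in UMUC3 but 0.150 and 0.138 in SW780, and IREB2 over ACO1 lies below 1 in UMUC3 and above 1 in SW780.

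A fit over both lines, with the line as a term and the lines serving as the replicates, tested 13554 genes including 8 members. The quasi-likelihood test of edgeR called 0 genes at an adjusted p of 0.05 (0.0% of genes), 418 had an unadjusted p under 0.05 (3.08%), and DESeq2 called 28 genes (0.208%) and no member. FTH1 had the lowest p of the members, with an edgeR log2 fold change of -0.43, lower in 2 of 2 lines, an unadjusted p of 0.0425 and an adjusted p of 0.986. NCOA4 followed at -0.33, also lower in 2 of 2 lines, with an edgeR adjusted p of 0.986. ACO1, lower in both lines too, had -0.24 in that fit. The 5 others lay between -0.20 (STEAP3) and 0.10 (SLC11A2). No member passed the adjusted threshold in either fit. The edgeR fit had 1 residual degree of freedom and called 0 genes, so SCD was not called either. It therefore says little about differences of the members' size.

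Across 83 further iron genes in 8 lists, a set with many more genes, the largest differences exceeded those of the members. In UMUC3, 67 of them were measured at 1 CPM or more. Past 1.5-fold, 8 stood higher and 3 lower, beside 10.1% and 6.86% of all genes, and their median ratio was 0.00. In SW780, 71 were measured and 0 stood higher and 2 lower past 1.5-fold, beside 5.05% and 3.7% of all genes, and their median was -0.03. Past 2-fold, 2 of these further genes stood higher and 1 lower in UMUC3, beside 4.64% of all genes in either direction. In SW780, 0 stood higher and 1 lower past 2-fold, beside 2.54% of all genes. The counts for single lists below rest on few genes. In either direction, 17.0% of all genes in UMUC3 and 8.75% in SW780 passed 1.5-fold. Of the uptake and endosomal release list, 2 of 9 measured genes were higher in UMUC3 by 1.5-fold, both of the STEAP3 family. STEAP2, a metalloreductase, had 40.1 CPM in UMUC3 shSCD1 and 18.8 CPM in UMUC3 shNT, 2.13-fold higher (1.91 to 2.39). STEAP1, which lacks the NADPH-binding domain of the others, had 107 CPM in UMUC3 shSCD1 and 60.2 CPM in UMUC3 shNT, 1.77-fold higher (1.66 to 1.89). Both stood near 1 CPM in SW780, where 0 of 11 uptake genes passed 1.5-fold. SLC39A14, a transporter of iron not bound to transferrin, had 255 CPM in UMUC3 shSCD1 and 185 CPM in UMUC3 shNT, against 86.6 CPM in SW780 shSCD1 and 86.3 CPM in SW780 shNT.

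Haem breakdown and transport held 2 higher genes and 1 lower gene past 1.5-fold of 8 measured in UMUC3, beside 10.1% and 6.86% of all genes. FLVCR1, first described as a haem exporter, had 21.4 CPM in UMUC3 shSCD1 and 9.07 CPM in UMUC3 shNT, 2.36-fold higher (2.02 to 2.77). HMOX1, which breaks haem down and frees its iron, had 106 CPM in UMUC3 shSCD1 and 66.0 CPM in UMUC3 shNT, 1.60-fold higher (1.51 to 1.71). In SW780 both were slightly lower, HMOX1 with 19.9 CPM in shSCD1 against 23.8 CPM in shNT and FLVCR1 with 18.4 CPM in shSCD1 against 23.4 CPM in shNT. PGRMC1, a haem-binding membrane protein, had 87.9 CPM in UMUC3 shSCD1 and 144 CPM in UMUC3 shNT, 1.64-fold lower (1.56 to 1.72). ABCG2, a transporter that can carry porphyrins, was lower in SW780, with 8.45 CPM in shSCD1 against 16.0 CPM in shNT. Haem synthesis had 0 of 8 measured genes past 1.5-fold in either line. The mitochondrial iron-sulphur list had 0 of 18 in either line, and the cytosolic list 1 of 9 in UMUC3, NDOR1, with 17.3 CPM in shSCD1 against 10.4 CPM in shNT.

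Systemic control and export gave 2 of 4 measured genes higher by 1.5-fold in UMUC3 (10.1% of all genes) and 1 of 5 lower in SW780 (3.7%). BMP6, which induces hepcidin in liver, had 86.6 CPM in UMUC3 shSCD1 and 54.6 CPM in UMUC3 shNT, 1.59-fold higher (1.48 to 1.70). ERFE, an erythroid suppressor of hepcidin, had 7.99 CPM in UMUC3 shSCD1 and 4.56 CPM in UMUC3 shNT, 1.75-fold higher (1.39 to 2.22). Both were also higher in SW780 at low levels. BMP6 had 2.50 CPM in SW780 shSCD1 and 1.41 CPM in SW780 shNT, 1.78-fold higher (1.20 to 2.64), and ERFE had 2.39 CPM in shSCD1 and 1.32 CPM in shNT, 1.81-fold higher (1.21 to 2.72). With the 1 CPM pseudocount these ratios did not reach 1.5-fold. The ferroxidase gene CP had 14 reads in SW780 shSCD1 and 171 in SW780 shNT, and shares 26.4% of its exonic bases with HPS3. BOLA2, an iron-sulphur partner of glutaredoxin, had 63 reads in UMUC3 shSCD1 and 187 in UMUC3 shNT, and is uncertain because BOLA2-SMG1P6 and SLX1B, annotated at the same locus, together cover all of its exonic bases. Among other mRNAs known for an iron-responsive element, 1 of 3 measured genes was past 1.5-fold in UMUC3, beside 17.0% of all genes. EPAS1, the hypoxia factor HIF-2α, had 224 CPM in UMUC3 shSCD1 and 126 CPM in UMUC3 shNT, 1.78-fold higher (1.71 to 1.86). In SW780 it had 975 CPM in shSCD1 and 1012 CPM in shNT. FTH1, FTL and HMOX1 are also targets of the oxidative stress factor NRF2. Their log2 ratios were -0.49, 0.09 and 0.67 in UMUC3, and -0.35, -0.25 and -0.25 in SW780. A part of NRF2 in these values was not tested.

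**Figure D4:**
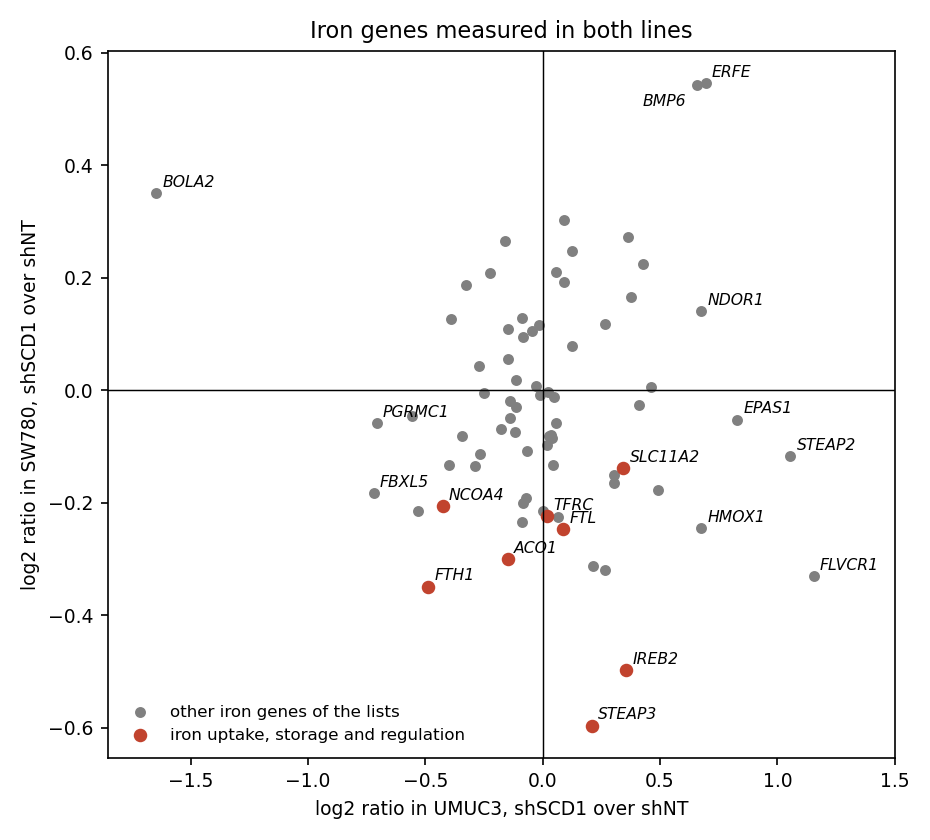
Log2 ratio of shSCD1 over shNT in UMUC3 (x) and SW780 (y) for the 74 iron genes with at least 1 CPM in both lines, 8 members in red and 66 other genes in grey. FTH1, NCOA4 and ACO1 are below 0 on both axes, while IREB2, STEAP3, SLC11A2 and FTL are above 0 in UMUC3 and below 0 in SW780.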

How the data were processed

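RNA from 4 groups (3 µg total RNA per library, TruSeq libraries, NovaSeq, per the labels' protocols) was given by the authors as 1 table per line, on hg38 per the submitters' processing notes. The sources used here give no aligner, counter or strand setting. The deposited signal columns, headed RPKM, did not scale with gene length: 99.9% of values were within 0.1 of a whole number of reads of fixed worth, so reads were recovered and divided by library totals (CPM). The deposited log2 fold change and GFOLD value served as alternatives, and the authors' E-FDR was not used. Log2 ratios used a 1 CPM pseudocount and genes reaching 1 CPM in a library of that line, with size thresholds of 1.5-fold and 2-fold. Both lines were fitted with edgeR 4.0.16 (quasi-likelihood) and DESeq2 1.42.0 in R 4.3.3. The edgeR fit was tested on simulated data first, and the DESeq2 fit was not. Other steps used Python 3.11.15, scipy 1.17.1 and GENCODE 29. No label says whether libraries came from separate cultures.

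The members and lists were chosen with earlier results of these data known. All members were named, and of each other list every gene past 2-fold and up to 4 genes of largest ratio with at least 5 CPM could be named. Alternatives varied scaling, pseudocount, low-value filter, the fold change used, GC and length trend, and reads of ferritin pseudogenes.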

Additional observations from a re-analysis of the deposited data

Results flagged for a closer look

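Ratios of shSCD1 over shNT had opposite signs in the 2 lines, with counting intervals that exclude 1 in each, for 4 of 8 members and 13 of 66 other iron genes measured in both lines. The share of all genes meeting this rule was not worked out, so these counts do not set the members apart. Where reads are many, such intervals exclude 1 at small differences, as for FTL in UMUC3 at 1.06-fold, with a deposited GFOLD value of 0. STEAP3 in UMUC3, at 1.16-fold, had a deposited GFOLD value of 0.008. Values are given for the 4 members and for the 4 of those 13 that also passed 1.5-fold in a line. The difference between lines was not tested, because each group has 1 library. As the log2 ratio in UMUC3 minus that in SW780, it was 0.85 for IREB2, 0.81 for STEAP3, 0.48 for SLC11A2 and 0.34 for FTL. Outside the members it was 1.49 for FLVCR1, 0.92 for HMOX1, 0.88 for EPAS1 and -2.00 for BOLA2, all of whose exonic bases lie in other genes at its locus.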

How the results depend on the processing

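Of the members' log2 ratios, TFRC in UMUC3 alone changed sign, in 4 of 12 alternatives, between -0.06 and 0.02, and FTL in UMUC3 ranged from 0.00 to 0.20. STEAP3 in UMUC3 ranged from 0.008, the authors' deposited GFOLD value, to 0.21. STEAP3 in SW780 ranged from -0.66 to -0.50, so the count past 1.5-fold was 0 in place of 1 with a 5 CPM pseudocount and 0 with the authors' deposited GFOLD value. With BEST1 reads added to FTH1, an alternative chosen after seeing the data, the UMUC3 count past 1.5-fold was 1 in place of 0, and TFRC to FTH1 reads in UMUC3 shNT were 0.511 in place of 0.560, and FTL to FTH1 reads 0.991 in place of 1.09. Counts of members past 2-fold stayed at 0 in every alternative run. The labels carry no replicate numbers, and the only pairing is by line, in the fit over both lines. Among the members, SLC40A1 had the fewest reads and the widest counting interval.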
